A study of Mus musculus with 21 samples.

Results

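Ligand-gated neurotransmitter receptors are ion channels that open when a transmitter binds. Their subunits were followed here as 37 genes of the 55400 in the count table, chosen by name as AMPA (4), kainate (5), NMDA (7), GABA-A (8), glycine (4), neuronal nicotinic (6) and muscle nicotinic (3) subunits. The table listed all 37. The cultures were motor neurons derived from wild-type C57BL/6 mouse embryonic stem cells that had been kept on embryonic fibroblast feeders, and each library is bulk polyA RNA of embryoid bodies that can hold several cell types. Untreated libraries were collected at D4, D4H8 (D4 plus 8 h), D5 and D6, and libraries treated with GSKJ4, an inhibitor of Kdm6 histone demethylases, at D4H8, D5 and D6, with the drug added 1 day before collection. Each of the 7 groups had 3 libraries, which the study describes as independent experiments. Every group had received 1 µM retinoic acid and 0.5 µM of the Sonic hedgehog agonist SAG, and the protocol adds 5 µM of the Notch pathway inhibitor DAPT from D4 onward. At D5 the protocol changes to medium without retinoic acid and SAG. Changes after D4 and after D5 thus coincide with changes of medium, and time and medium cannot be told apart there. The GSKJ4 dose and the vehicle given to untreated cultures were not given in the sources used here.

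Glutamate receptors of the AMPA, kainate and NMDA classes carry fast excitation, while GABA-A and glycine receptors are chloride channels that carry fast inhibition in the mature spinal cord. Nicotinic receptors answer to acetylcholine, the transmitter that motor neurons themselves release. Neuronal nicotinic subunits build receptors between neurons, and the muscle subunits build the receptor of the neuromuscular junction. In all of these families the mixture of subunits sets how a channel conducts and how quickly it closes.

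Library totals lay between 14982115 and 34383842 counts with a median of 16238435, and untreated D4H8 replicate 1 was the deepest. The library of GSKJ4-treated D5 replicate 2 stood apart, with 39381 genes at 0 counts against 29339 to 32805 in the others. The motor neuron markers Mnx1, Isl1, Isl2, Chat, Slc18a3 and Slc5a7 summed to between 7.34 and 17.6 FPKM at D4 and between 408 and 467 FPKM at D6, and all 6 rose between these stages. The 6 pan-neuronal markers summed to 35.4 to 70.8 FPKM at D4 and 1773 to 2039 FPKM at D6. The 5 progenitor markers summed to 127 to 182 FPKM at D4 and 27.1 to 51.4 FPKM at D6. Of these, 4 fell, while Nes had means of 19.5 FPKM at D4 and 21.05 FPKM at D6. The 9 interneuron markers summed to 1.34 to 1.88 FPKM at D4 and 4.44 to 5.40 FPKM at D6, where 5 of 7 tested rose and Slc17a6 averaged 1.96 FPKM; their part in the receptor levels was not tested. Since the libraries are bulk, fewer cells of a type and less RNA per cell cannot be told apart in any value below.

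Sequence around the start sites is shown for 5 of the members that rose in the 8 h after D4, so that the 3 adjacent nicotinic genes and the 2 glutamate receptor genes among them can be read side by side. Each window holds 250 bases before and 50 after a RefSeq start site, written 5′ to 3′ on the gene's strand in GRCm38.p6. Capitals mark the E-boxes CAGATG and the palindromic CAGCTG, the homeodomain core TAATTA, the Onecut-type motif ATTGAT, the GC box GGGCGG and the letters GGACAGC from the element that the neuronal repressor REST binds. All were searched on both strands, and 0 pairs of matches overlapped. The windows are chr9:54980630-54980929 (plus strand) for Chrna5, chr9:55026513-55026812 (minus) for Chrna3, chr9:55048495-55048794 (minus) for Chrnb4, chr3:80802786-80803085 (minus) for Gria2 and chr4:125490446-125490745 (plus) for Grik3.
Chrna5: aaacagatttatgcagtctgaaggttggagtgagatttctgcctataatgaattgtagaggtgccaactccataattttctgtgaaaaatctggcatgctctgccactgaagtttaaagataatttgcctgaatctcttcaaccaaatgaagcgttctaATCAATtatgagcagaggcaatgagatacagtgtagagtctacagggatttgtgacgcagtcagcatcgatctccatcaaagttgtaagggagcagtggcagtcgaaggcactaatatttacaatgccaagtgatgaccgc
Chrna3: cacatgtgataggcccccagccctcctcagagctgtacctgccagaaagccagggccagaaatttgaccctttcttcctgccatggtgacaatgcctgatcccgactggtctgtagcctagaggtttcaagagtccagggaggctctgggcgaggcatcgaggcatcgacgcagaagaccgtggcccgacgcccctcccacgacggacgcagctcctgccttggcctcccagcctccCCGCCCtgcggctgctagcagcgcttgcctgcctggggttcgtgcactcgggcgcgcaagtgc
Chrnb4: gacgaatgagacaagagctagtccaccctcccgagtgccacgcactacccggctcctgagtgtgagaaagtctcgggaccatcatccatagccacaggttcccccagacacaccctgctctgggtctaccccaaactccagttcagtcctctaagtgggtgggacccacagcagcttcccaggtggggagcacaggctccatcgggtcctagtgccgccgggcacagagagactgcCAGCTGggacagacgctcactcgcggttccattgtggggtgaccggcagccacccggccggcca
Gria2: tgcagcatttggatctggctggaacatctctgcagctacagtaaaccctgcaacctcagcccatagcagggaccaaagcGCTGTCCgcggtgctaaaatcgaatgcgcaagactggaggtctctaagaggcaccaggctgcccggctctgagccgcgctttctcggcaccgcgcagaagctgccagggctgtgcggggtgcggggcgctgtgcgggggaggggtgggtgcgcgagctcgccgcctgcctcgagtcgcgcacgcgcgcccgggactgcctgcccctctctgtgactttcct
Grik3: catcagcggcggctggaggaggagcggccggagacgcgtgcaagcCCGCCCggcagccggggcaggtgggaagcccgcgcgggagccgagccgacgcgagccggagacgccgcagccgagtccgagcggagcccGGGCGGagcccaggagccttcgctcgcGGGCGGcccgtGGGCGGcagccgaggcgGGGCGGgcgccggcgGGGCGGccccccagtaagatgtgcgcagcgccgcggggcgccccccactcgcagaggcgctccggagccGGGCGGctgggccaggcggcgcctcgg

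The window table matched 29 of the 37 members by symbol, and Glra1, Gria1, Gria3, Grik1, Grin2a, Grin2b, Grin3a and Chrnd had no entry. The GC box GGGCGG was found in 17 of the 29 member windows and in 35.7% of all 32851 windows in the table. Grik3 held 7 of these matches, while Chrnb4 and Gria2 held 0. The E-box CAGATG was in 2 member windows (17.2% of all windows), CAGCTG in 3 (16.3%), TAATTA in 2 (5.29%), ATTGAT in 1 (7.54%) and GGACAGC in 3 (6.56%), with Gria2 among the last. The 3 neighbouring nicotinic genes shared none of these letters, with ATTGAT in Chrna5, GGGCGG in Chrna3 and CAGCTG in Chrnb4. CG dinucleotides numbered 5 in Chrna5, 18 in Chrna3, 14 in Chrnb4, 26 in Gria2 and 50 in Grik3, against a median of 7 over all windows.

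The first question was when each receptor class appears along the untreated course from progenitor to postmitotic neuron. FPKM (fragments scaled to exon length and library total) is used for levels, since it allows genes of different length to be compared. At D4, 8 of the 37 members reached a mean of 1 FPKM, and at D6, 23 did. The mean FPKM of all members summed to 38.9 at D4, 90.2 at D4H8, 177 at D5 and 242 at D6. Of the 37 members, 25 had their highest untreated mean at D6, 3 at D5, 3 at D4H8 and 5 at D4. Glra3, an alpha subunit of the glycine receptor, had at most 1 count in any library.

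**Figure D1:**
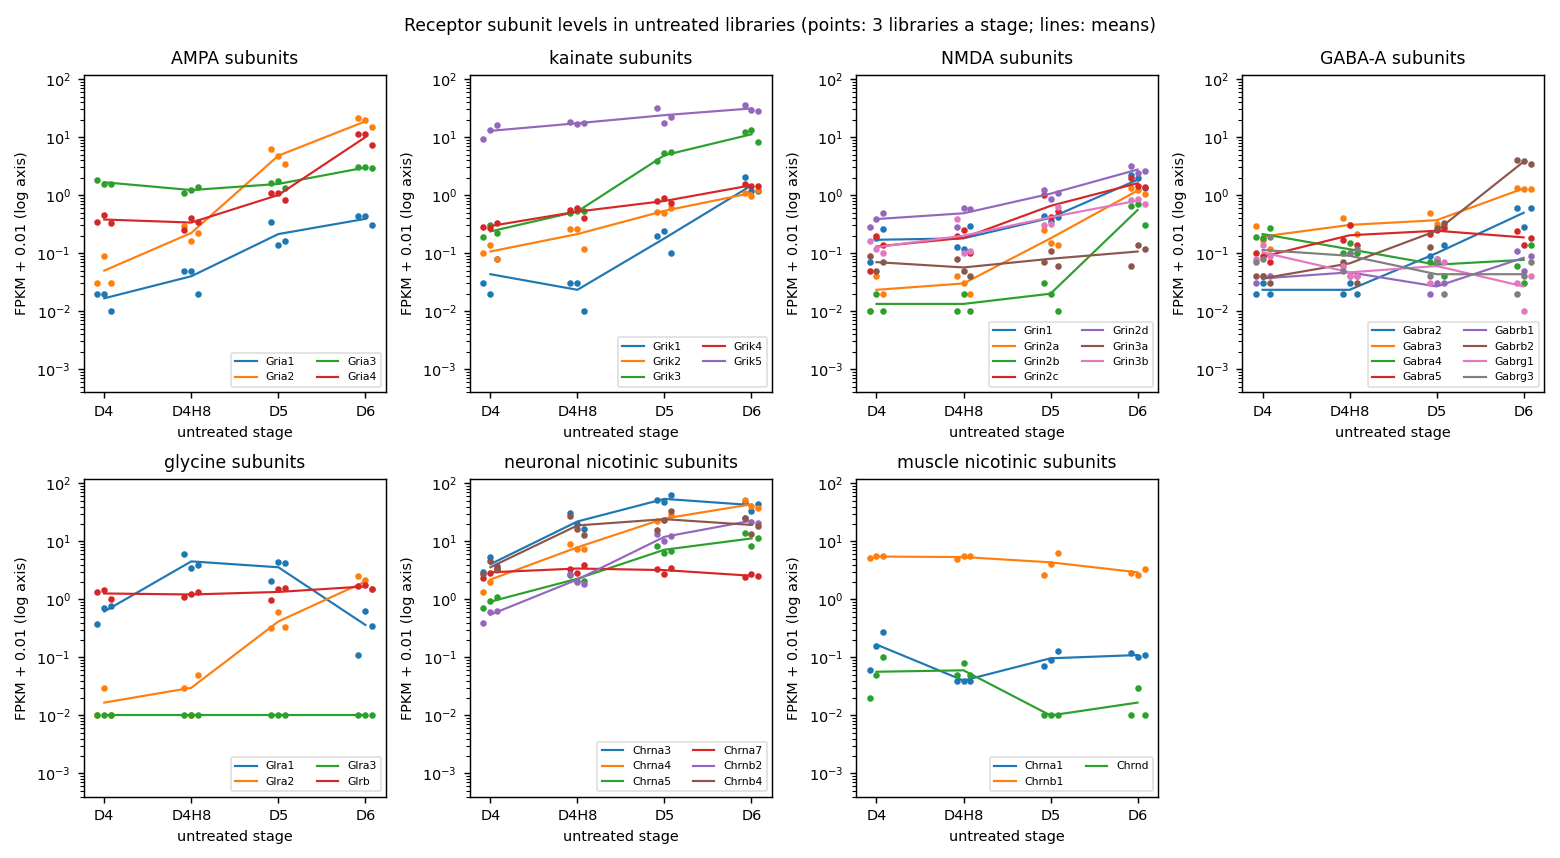
FPKM of the 37 subunit genes in the untreated libraries by stage, 1 panel a family, on a log axis with 0.01 added; points are the 3 libraries of a stage and lines join stage means. Neuronal nicotinic genes other than Chrna7 climb from D4 to D4H8, most glutamate receptor genes climb later, and Glra1 is high only at D4H8 and D5, between 2.09 and 6.11 FPKM.

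Tests used edgeR's quasi-likelihood test on counts with Benjamini-Hochberg adjustment over all tested genes, and a gene was called at an adjusted p under 0.05. The filter on low counts kept 33 of the 37 members among 17519 genes in the stage comparison; Gabrg1, Glra3, Chrna1 and Chrnd did not pass. Gabra2, Gabrb1 and Grin2b passed through their D6 libraries alone, so that they had to differ, and they are among the members counted below as rising to D6. Between D4 and D4H8, 8 members rose and 0 fell, where 4.06% of all tested genes rose and 0.32% fell. These 8 were the nicotinic Chrna3, Chrna4, Chrna5, Chrnb2 and Chrnb4, the glycine receptor gene Glra1, the AMPA gene Gria2 and the kainate gene Grik3. Between D4H8 and D5, 17 members rose and 0 fell (17.2% and 10.5% of all tested genes). Between D5 and D6, 20 rose and 1, Glra1, fell (19.2% and 15.1%). Across the whole course from D4 to D6, 25 rose and 2, Gabra4 and Chrnb1, fell (32.9% and 31.0%). Among the 16 members with at least 10 counts in every untreated library, tested with that stricter filter, 13 rose and 1 fell from D4 to D6 (34.3% and 34.2% of the 13584 genes that passed it). Same-numbered libraries of neighbouring stages deviated together weakly, with correlations of their deviations from 0.157 to 0.455. With the replicate number as a block, Grik4 also passed between D4H8 and D5 (adjusted p = 0.049).

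**Figure D2:**
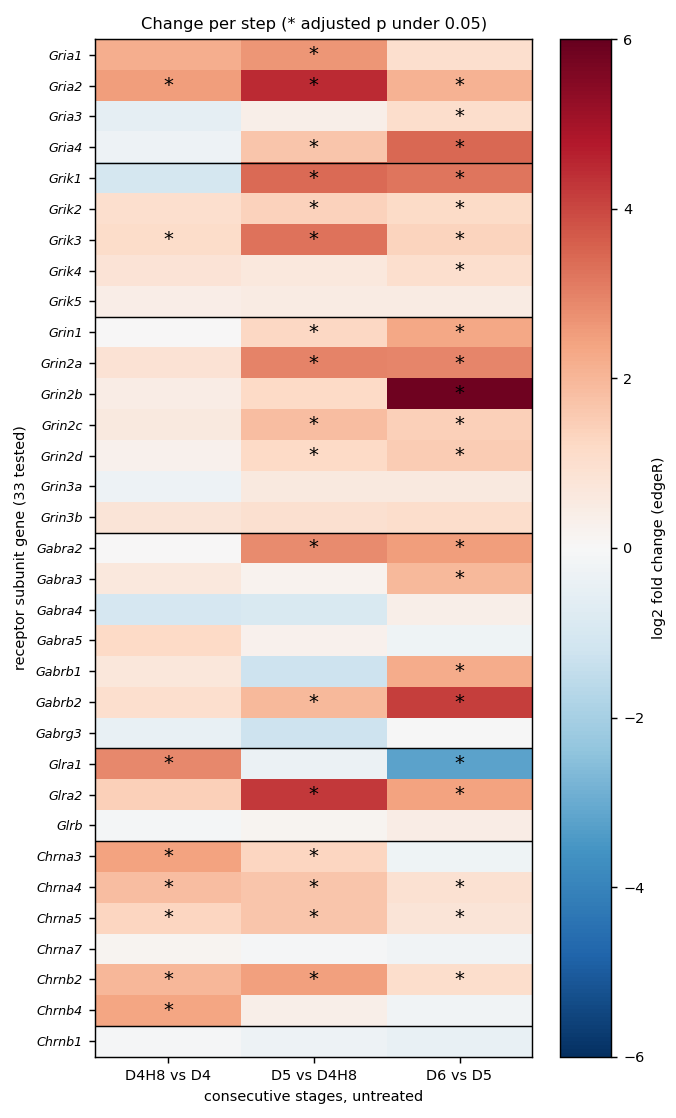
Log2 fold change of the 33 tested members at each step between consecutive untreated stages, from edgeR; colour gives direction and size, an asterisk an adjusted p under 0.05, and black lines part the families. The nicotinic block carries 5 of the 8 asterisks of the first step, and the only asterisk on a decrease is Glra1 from D5 to D6.

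AMPA receptors are the main channels of fast excitatory transmission, and the Gria2 subunit, when edited, keeps them from passing calcium. Gria2 (ENSMUSG00000033981, GRCm38 chromosome 3, 80681450 to 80802835, minus strand) stood at 0.02, 0.08 and 0.02 FPKM in the 3 D4 libraries and at 0.28, 0.15 and 0.21 FPKM at D4H8. It reached 6.23, 4.72 and 3.40 FPKM at D5 and 21.6, 19.7 and 14.8 FPKM at D6. No library of one stage overlapped with the next, and from D4 to D6 the log2 fold change was 9.03 ± 0.45 (SE; adjusted p = 1.3e-09), the highest among the members. The first step, 2.49 ± 0.48 (adjusted p = 0.0080), was no longer called without D4 replicate 1 (adjusted p = 0.059) or D4H8 replicate 1 (adjusted p = 0.060).

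Gria4 rose from a mean of 0.370 ± 0.070 FPKM (SD, n = 3) at D4 to 9.98 ± 2.27 FPKM at D6, with most of the rise, 3.44 ± 0.24 on the log2 scale, between D5 and D6 (adjusted p = 6.1e-07). Gria3 (ENSMUSG00000001986, chromosome X, 41400854 to 41678601, plus strand) was the AMPA subunit already present at D4, at 1.84, 1.57 and 1.56 FPKM. It stood at 1.07, 1.21 and 1.36 FPKM at D4H8, 1.60, 1.72 and 1.33 FPKM at D5, and 2.99, 3.09 and 2.88 FPKM at D6. Its D6 libraries all lay above those of the earlier stages, and the change from D4 was 0.90 ± 0.17 (adjusted p = 0.00029). Gria1 stayed at or under 0.42 FPKM in every untreated library, and its 109 summed counts at D6 against 2 at D4 give a ratio of 63.7 after scaling to library totals, with an exact 95% counting interval of 17.2 to 533, which covers counting error only. The family's composition turned over. Gria3 made up 79.9% ± 4.8 of summed AMPA FPKM at D4 and 9.52% ± 1.64 at D6, while Gria2 went from 1.92% ± 1.63 to 58.3% ± 0.99 and Gria4 from 17.9% ± 3.1 to 31.0% ± 1.7 (SD, n = 3). For Gria2 and Gria3 the D4 and D6 shares did not overlap (two-sided exact permutation p = 0.1 each, the smallest that 3 against 3 libraries allow).

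Kainate receptors modulate transmission before and after the synapse; Grik4 and Grik5 are the high-affinity subunits that work only together with Grik1, Grik2 or Grik3. Grik5 (ENSMUSG00000003378, chromosome 7, 25009849 to 25072346, minus strand) led the family at every untreated stage. It stood at 9.22, 13.2 and 16.01 FPKM at D4, 17.9, 16.9 and 17.2 FPKM at D4H8, 32.1, 17.4 and 22.3 FPKM at D5, and 36.1, 29.1 and 28.5 FPKM at D6. The D5 libraries overlapped with both neighbours, and only the change over the whole course was called (1.37 ± 0.22, adjusted p = 7.6e-05). Grik3 (ENSMUSG00000001985, chromosome 4, 125490700 to 125714173, plus strand) stood at 0.18, 0.29 and 0.21 FPKM at D4 and at 0.49, 0.53 and 0.52 FPKM at D4H8. It stood at 3.83, 5.26 and 5.49 FPKM at D5 and at 12.1, 13.1 and 8.36 FPKM at D6. Its stages did not overlap, and the change from D4 to D6, 5.69 ± 0.24 (adjusted p = 3.2e-10), was the largest of the family. The small first step of Grik3, 1.12 ± 0.23 (adjusted p = 0.013), was lost without D4 replicate 1 (adjusted p = 0.081) or D4H8 replicate 1 (adjusted p = 0.053). Grik1, Grik2 and Grik4 also rose from D4 to D6, to means of 1.46, 1.08 and 1.47 FPKM. The share of Grik5 in summed kainate FPKM was 95.1% ± 0.86 at D4 and 67.3% ± 3.4 at D6, and that of Grik3 went from 1.73% ± 0.42 to 24.1% ± 4.2.

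NMDA receptors need glycine as well as glutamate, so that each carries the obligatory Grin1 subunit together with Grin2 or Grin3 subunits. Grin2d (ENSMUSG00000002771, chromosome 7, 45831883 to 45878378, minus strand), a subunit typical of embryonic tissue, had the highest D6 mean of the family. It stood at 0.27, 0.38 and 0.48 FPKM at D4, 0.27, 0.60 and 0.56 FPKM at D4H8, 1.23, 0.84 and 1.08 FPKM at D5, and 3.22, 2.42 and 2.62 FPKM at D6. D4 and D4H8 overlapped and the later stages did not, with a change of 2.96 ± 0.31 from D4 to D6 (adjusted p = 1.6e-06). Grin2b (ENSMUSG00000030209, chromosome 6, 135713233 to 136173511, minus strand) had 0, 4 and 0 counts at D4 and was at or under 0.02 FPKM in every untreated library through D5. At D6 it stood at 0.65, 0.68 and 0.30 FPKM. Its 650 summed counts at D6 against 4 at D4 give, scaled to the library totals, a ratio of 190 (exact 95% counting interval 73.9 to 700); since only its D6 libraries carried it past the filter, no test is given. Grin1 reached 1.83 ± 0.45 FPKM at D6, Grin2c 1.59 ± 0.34, Grin2a 1.19 ± 0.16 and Grin3b 0.793 ± 0.083, each called higher than at D4. Grin3a was at or under 0.13 FPKM throughout the untreated course and was not called between D4 and D6 (adjusted p = 0.15). The call of Grin1 between D4H8 and D5 (1.26 ± 0.42, adjusted p = 0.040) was lost without any one D5 library, without D4H8 replicate 1 or 2, without D4 replicate 2 and without D6 replicate 2 (adjusted p from 0.054 to 0.144). Exons of Grin3b overlap Tmem259, a gene on the other strand with a mean of 21.3 FPKM, over 32.1% of their length, and the counting strand was not stated, so the level of Grin3b is uncertain. Antisense genes likewise cover 13.5% of Grin1 and 9.66% of Grin2d, at means of 0.187 and 0.736 FPKM.

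GABA-A receptors are pentamers, usually of alpha, beta and gamma subunits, and the 8 genes measured here summed to 5.92 ± 0.42 FPKM at D6. Gabrb2 (ENSMUSG00000007653, chromosome 11, 42419757 to 42629028, plus strand) accounted for 63.8% ± 4.6 of it, against 3.69% ± 0.90 at D4. It stood at 0.03, 0.03 and 0.02 FPKM at D4, 0.06, 0.09 and 0.02 FPKM at D4H8, 0.12, 0.26 and 0.32 FPKM at D5, and 4.06, 3.85 and 3.41 FPKM at D6. The D6 libraries lay far above all others, with a change of 7.08 ± 0.44 from D4 (adjusted p = 8.7e-09). Gabra2 and Gabrb1 had D6 means of 0.487 ± 0.188 and 0.0733 ± 0.0306 FPKM. Since only their D6 libraries carried them past the filter, no test is given for them. Gabra3 rose to 1.30 ± 0.038 FPKM. Gabra4 moved the other way, from 0.203 ± 0.049 to 0.0667 ± 0.0569 FPKM (log2 fold change -1.57 ± 0.54, adjusted p = 0.021), a call lost without D4 replicate 3, D6 replicate 1 or D6 replicate 2 (adjusted p from 0.057 to 0.093). It would not have passed the filter without its D4 libraries, so a fall was favoured in advance. Gabra5 and Gabrg3 did not pass (adjusted p = 0.053 each). The GABA-A gene cluster on chromosome 5 (Gabrg1, Gabra2, Gabra4 and Gabrb1, 70751047 to 72149037) gave D6 means of 0.0167 to 0.487 FPKM, and Gabra5 with Gabrg3 on chromosome 7 gave 0.177 and 0.0333. The gamma subunit genes among the members, Gabrg1 and Gabrg3, had at most 0.06 FPKM in any untreated D6 library.

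Glycine receptors combine alpha subunits, which bind the transmitter, with the beta subunit Glrb, which anchors them at synapses. Glra1 (ENSMUSG00000000263, chromosome 11, 55514238 to 55608198, minus strand), the adult alpha subunit in the spinal cord, stood at 0.36, 0.70 and 0.77 FPKM at D4 and at 6.11, 3.52 and 3.93 FPKM at D4H8. At D5 it stood at 2.09, 4.33 and 4.31 FPKM, and at D6 at 0.10, 0.62 and 0.34 FPKM. D4H8 and D5 overlapped and both lay above D4 and D6, with a rise of 2.88 ± 0.45 at the first step (adjusted p = 0.0015) and a fall of -3.21 ± 0.48 at the last (adjusted p = 0.00022). Levels at D4 and D6 did not differ beyond their spread (-0.69 ± 0.51, adjusted p = 0.25).

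Glra2 (ENSMUSG00000018589, chromosome X, 165129017 to 165327393, minus strand), the alpha subunit known from embryonic spinal cord, had 0, 1 and 0 counts at D4. It stood at 0.02, 0 and 0.04 FPKM at D4H8, 0.31, 0.59 and 0.32 FPKM at D5, and 2.49, 2.13 and 1.48 FPKM at D6. The D6 to D4 ratio of summed counts was 360 (exact 95% counting interval 64.2 to 14270), and the steps from D4H8 to D5 (4.23 ± 0.65, adjusted p = 0.00025) and from D5 to D6 (2.43 ± 0.43, adjusted p = 0.00076) were both called. Glrb held between 0.95 and 1.78 FPKM in all untreated libraries and passed at no step. In the family's summed FPKM, Glra1 took 32.3% ± 10.8 at D4, 77.8% at D4H8, 66.5% at D5 and 8.73% ± 5.81 at D6, and Glra2 took 49.8% ± 7.3 at D6. An antisense gene, Gm12236, covers 5.84% of Glra1 exons at a mean of 0.124 FPKM.

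**Figure D3:**
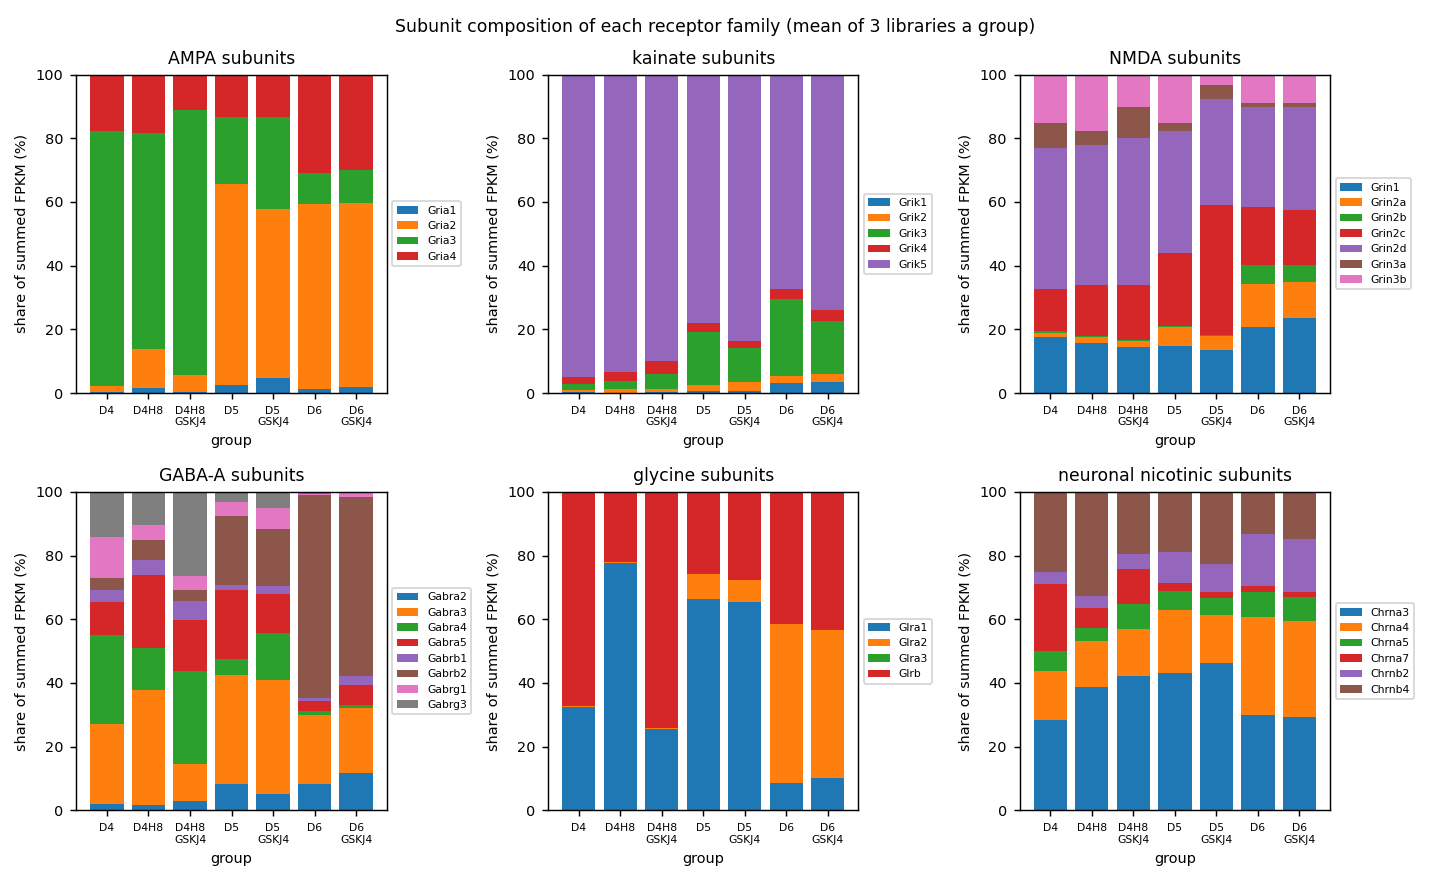
Share of each subunit in the summed FPKM of its family, as the mean of 3 libraries in each of the 7 groups; bars run from 0 to 100%. Among AMPA genes the share of Gria3 falls, although its level rises, while the shares of Gria2 and Gria4 grow. Gabrb2 becomes 63.8% of GABA-A at D6, and among glycine genes Glra1 takes 77.8% at untreated D4H8 but 25.5% with GSKJ4 at that stage.

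Neuronal nicotinic subunits reached the highest levels of all members, at a summed 14.2 ± 3.2 FPKM at D4, 56.7 ± 16.6 at D4H8, 126 ± 19.7 at D5 and 142 ± 24.2 at D6. Chrna4 (ENSMUSG00000027577, chromosome 2, 181018380 to 181043546, minus strand), which with Chrnb2 forms the most common nicotinic receptor of the brain, stood at 1.35, 1.99 and 3.24 FPKM at D4 and at 9.03, 7.33 and 7.38 FPKM at D4H8. It stood at 22.3, 23.9 and 28.2 FPKM at D5 and at 52.6, 40.3 and 37.9 FPKM at D6. No stages overlapped, and the change from D4 to D6 was 4.42 ± 0.25 (adjusted p = 4.6e-09).

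Chrnb2 (ENSMUSG00000027950, chromosome 3, 89746195 to 89764632, minus strand) stood at 0.39, 0.60 and 0.62 FPKM at D4 and at 2.78, 1.99 and 1.82 FPKM at D4H8. It stood at 13.4, 10.0 and 12.5 FPKM at D5 and at 25.8, 21.8 and 20.8 FPKM at D6. It had the largest change of its family, 5.49 ± 0.23 (adjusted p = 3.7e-10), again with no overlap between stages. Its exons share 16.3% of their length with Adar on the other strand (mean 9.68 FPKM), so part of its level is uncertain.

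Chrna5, Chrna3 and Chrnb4, the subunits of ganglionic nicotinic receptors, lie next to each other on chromosome 9 (54980880 to 55048779, 67.9 kb), and their windows are printed above. All 3 rose at the first step, Chrna3 by 2.42 ± 0.26 (adjusted p = 8.3e-05), Chrnb4 by 2.37 ± 0.34 (adjusted p = 0.00080) and Chrna5 by 1.30 ± 0.23 (adjusted p = 0.0050). Chrna3 rose again to D5 (1.29 ± 0.25, adjusted p = 0.0015), while Chrnb4 did not pass there (adjusted p = 0.47). Their D5 means were 54.2 and 24.2 FPKM and their D6 means 42.4 and 19.3 FPKM, and neither passed between D5 and D6 (adjusted p = 0.49 and 0.67). Chrna5 went on rising to 11.3 ± 2.7 FPKM, but its last step (0.77 ± 0.21, adjusted p = 0.012) was lost without D5 replicate 2 or 3 or D6 replicate 1 (adjusted p from 0.054 to 0.072). Chrna7, which forms receptors on its own, stayed between 2.37 and 3.94 FPKM in all untreated libraries and passed at no step. Its share of the family was 20.9% ± 2.9 at D4 and 1.84% ± 0.41 at D6, while that of Chrna4 went from 15.3% ± 4.9 to 30.8% ± 2.8. The part of other cell types in the nicotinic levels was not tested.

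Muscle nicotinic subunits were at or near the floor but for Chrnb1. Chrna1 stayed at or under 0.27 FPKM and Chrnd at or under 0.11 FPKM in every library. Chrnb1 (ENSMUSG00000041189, chromosome 11, 69784036 to 69795943, minus strand) stood at 5.18, 5.55 and 5.70 FPKM at D4, 5.00, 5.57 and 5.54 FPKM at D4H8, 2.61, 4.13 and 6.32 FPKM at D5, and 2.83, 2.61 and 3.35 FPKM at D6. The D6 libraries lay below those of D4 and D4H8, and the change from D4 was -0.84 ± 0.24 (adjusted p = 0.0083). The 8 skeletal muscle markers summed to 10.95 to 11.69 FPKM at D4, 7.24 to 20.99 at D4H8, 8.16 to 18.3 at D5 and 4.29 to 8.78 at D6, with Acta1 the highest in mean at each stage (7.77, 13.2, 10.3 and 2.74 FPKM) and Des at 1.17 to 2.49 FPKM. The regulators Myod1, Myf5 and Myf6 had at most 3 counts in every untreated library, and Myog averaged 0.363 FPKM at D6 after at most 3 counts in each earlier library. The part of muscle-like cells in the Chrnb1 level was not tested.

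In the order of D6 levels, Chrna4 (43.6 ± 7.9 FPKM, SD) and Chrna3 (42.4 ± 7.5) came first and overlapped, and Chrna3 in turn overlapped with Grik5 (31.2 ± 4.2). A gap with no overlap followed before Chrnb2 (22.8 ± 2.6), Chrnb4 (19.3 ± 6.0) and Gria2 (18.7 ± 3.5), which overlapped in turn. Gria2 did not overlap with Chrna5, the next in order, although Chrnb4 replicate 2 (13.6 FPKM) lay below Chrna5 replicate 1 (13.7 FPKM), and Chrna5, Grik3 and Gria4 overlapped in turn between 9.98 and 11.3 FPKM. Gabrb2 stood alone at 3.77 ± 0.33 FPKM, and below it each neighbour overlapped with the next down to Grik2 at 1.08 ± 0.14 FPKM.

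Genes that partner these receptors, taken from lists chosen with earlier results of these data known, were counted in the same fits. Partners that passed the filter through their D6 libraries alone, and so had to rise, were not set apart. Of 31 partners of glutamate receptors, 29 were tested, and 23 rose and 0 fell from D4 to D6, where 32.9% of all tested genes rose and 31.0% fell. By largest change, the auxiliary AMPA subunit Cacng2 went from 1 summed count at D4 to 1041 at D6 (ratio 1218, counting interval 218 to 48130), Shisa6 from 0.11 to 6.35 FPKM and Cacng4 from 1.04 to 44.1 FPKM. Of 11 partners of inhibitory receptors, 9 rose and 1 fell, with Iqsec3 at 0.0133 and 6.31 FPKM, the GABA receptor signalling partner Plcl1 at 0.180 and 9.52 FPKM, and Shisa7 at 0.443 and 14.2 FPKM. The gene that fell was Slc12a2, the importer of chloride (-0.69 ± 0.12, adjusted p = 0.00017), while Slc12a5, the chloride exporter of mature neurons, rose by 4.54 ± 0.29 on the log2 scale (adjusted p = 1.4e-08); these 2 were singled out after their values were seen. Of 10 nicotinic partners, 9 were tested, and 7 rose and 1 fell, with the binding protein Lypd1 at 0.0633 and 15.04 FPKM, the assembly chaperone Tmem35a at 2.08 and 23.7 FPKM, and Lynx1 at 0.220 and 0.933 FPKM. Musk and Lrp4 build the agrin receptor of muscle; Musk was at 0 FPKM in the mean of each untreated stage, and Lrp4 was the gene that fell. Of 3 genes of the Adar family, Adar and Adarb2 rose from D4 to D6, Adarb2 from 10 summed counts to 126. Adarb1, which edits Gria2, had means of 1.93 and 1.69 FPKM and did not pass. Musk, Lrp4 and Adarb1 were likewise singled out after their values were seen.

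The second question was whether treatment with the demethylase inhibitor for 1 day changed these genes. At D4H8, 24 members were tested; 1 (Gria3) was higher and 1 (Glra1) lower with GSKJ4, where 3.96% of 16269 genes were called in either direction. Glra1 stood at 1.18, 0.63 and 0.50 FPKM with GSKJ4 against 6.11, 3.52 and 3.93 FPKM without. The groups did not overlap, and treated replicates 2 and 3 lay within the range of the untreated D4 libraries, while replicate 1 lay above it. The log2 fold change was -2.60 ± 0.41 (adjusted p = 0.019). It was no longer called when D4H8 replicate 1, 2 or 3 was left out (adjusted p = 0.106, 0.052 and 0.067), with fold changes of -2.28 to -3.01 over all 6 libraries left out in turn.

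Gria3 stood at 2.63, 2.58 and 2.08 FPKM with GSKJ4 against 1.07, 1.21 and 1.36 FPKM without, with no overlap and a change of 0.98 ± 0.23 (adjusted p = 0.047). This call was lost without D4H8 replicate 1, 2 or 3 (adjusted p = 0.233, 0.196 and 0.125) and without GSKJ4-treated replicate 1 (adjusted p = 0.076). Treated libraries also lay above every D4 library. In composition, Glra1 made up 25.5% of glycine receptor FPKM with GSKJ4 and 77.8% without, and Glrb 74.3% and 21.9% (two-sided exact permutation p = 0.1 each, the smallest possible).

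Libraries of the groups did not overlap for 7 of the 24 tested members at D4H8 (32.9% of all tested genes), with Gria3, Gabra4, Gabrg3 and Glrb higher and Glra1, Chrnb4 and Gabra3 lower under GSKJ4. Gabra4 and Gabrg3 would not have passed the filter on low counts without their treated libraries, nor Gabra3 without its untreated ones. The direction of Gabra4, Gabrg3 and Gabra3 was thus favoured in advance and is not a result. Chrnb4, given by library after its values were seen, stood at 9.56, 5.16 and 3.18 FPKM with GSKJ4 against 27.4, 16.5 and 12.7 FPKM without (-1.71 ± 0.42, adjusted p = 0.053). The neuronal nicotinic genes summed to 29.7 ± 13.4 FPKM with GSKJ4 and 56.7 ± 16.6 FPKM without, and 0 of the 6 were called. Chrnb1 stood at 13.4, 5.05 and 12.4 FPKM with GSKJ4 against 5.00 to 5.57 FPKM without (adjusted p = 0.12). In the same libraries, pan-neuronal markers summed to 76.5 to 217 FPKM with GSKJ4 and 190 to 369 FPKM without, motor neuron markers to 11.5 to 26.0 and 48.3 to 55.0 FPKM, and progenitor markers to 51.2 to 90.3 and 167 to 219 FPKM (2 of 5 called lower, with Olig2 at means of 6.93 and 98.2 FPKM). Their part in the receptor values was not tested. Among partners, Tmem35a (-1.79 ± 0.35, adjusted p = 0.031) and the AMPA auxiliary gene Gsg1l (-2.48 ± 0.55, adjusted p = 0.043) were called lower. Without D4H8 replicate 1, 2 or 3, adjusted p was 0.167, 0.130 and 0.0753 for Tmem35a and 0.233, 0.162 and 0.0957 for Gsg1l. Without GSKJ4-treated replicate 1 or 3 it was 0.0594 and 0.0653 for Tmem35a, and without treated replicate 1, 2 or 3 it was 0.0609, 0.0515 and 0.0885 for Gsg1l.

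**Figure D4:**
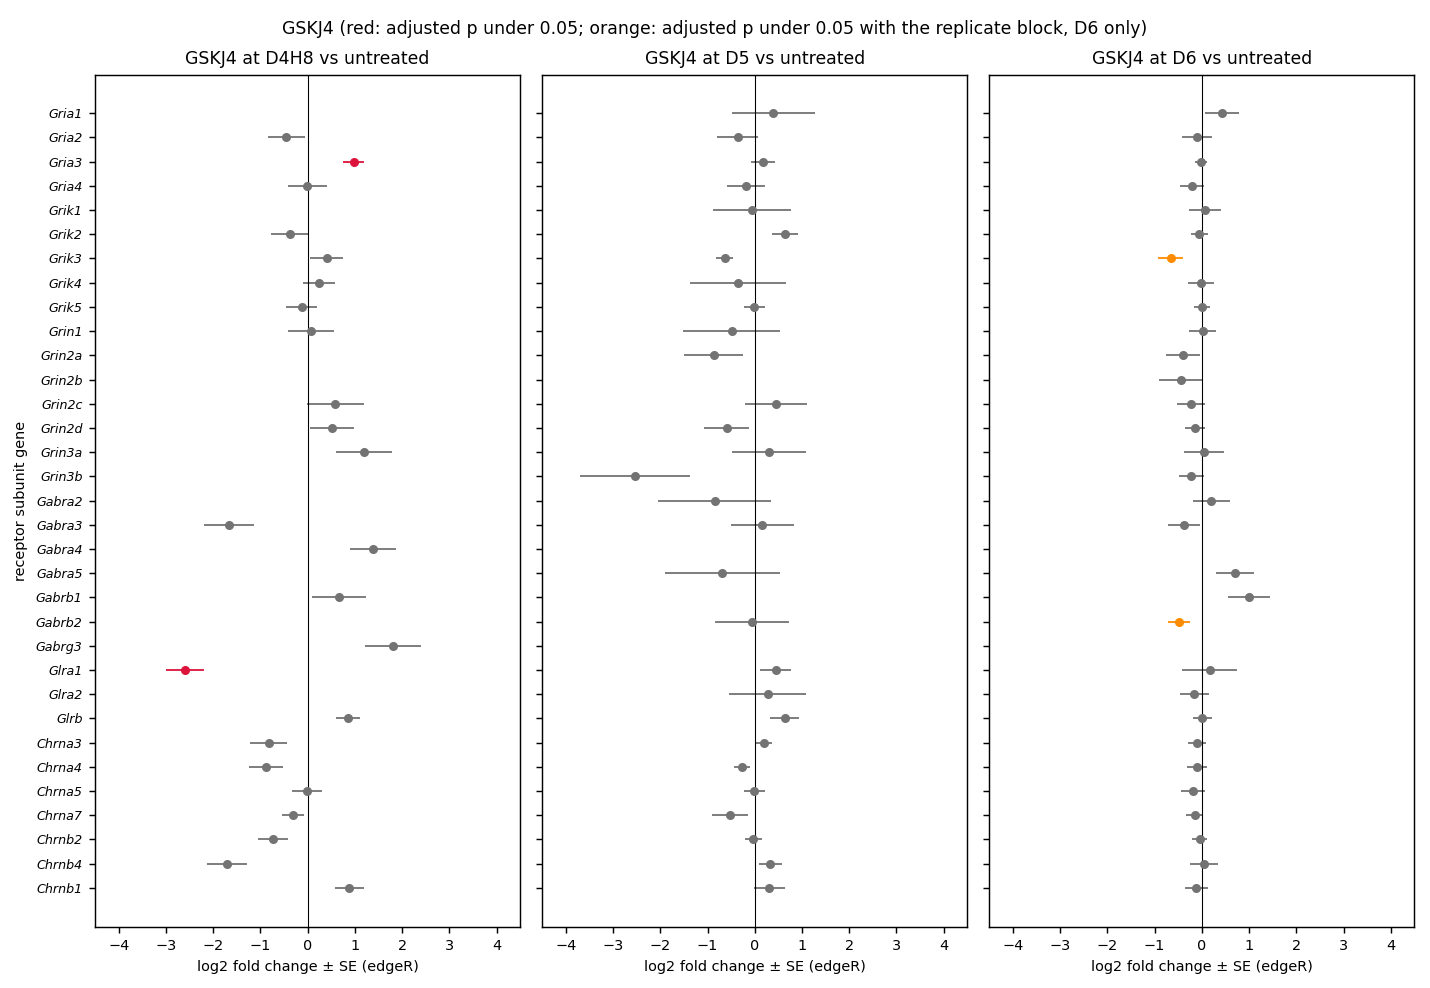
Log2 fold change ± SE of GSKJ4-treated over untreated libraries for the tested members at D4H8, D5 and D6 (3 against 3 libraries each, edgeR); red marks an adjusted p under 0.05 and orange, at D6 only, one that is under 0.05 with the replicate block. Glra1 (-2.60) and Gria3 (0.98) stand out at D4H8, and Grik3 and Gabrb2 are the orange points at D6.

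At D5, 0 of 29 tested members were called by edgeR and 0 by DESeq2, with 2 (Grik2 and Grik3) at an unadjusted p under 0.05 (4.7% of all tested genes); 0.00613% of all tested genes were called. Without the library that stands apart, treated replicate 2, the count was also 0. Groups did not overlap for 4 members (11.6% of all tested genes), with Glrb and Grik2 higher and Grik3 and Grin3b lower. Grin3b would not have passed the filter without its untreated libraries, so its direction was favoured in advance. Glra1 with GSKJ4 stood at 5.53, 4.11 and 5.26 FPKM against 2.09, 4.33 and 4.31 FPKM without, which overlapped. Grik3 stood at 2.80, 3.59 and 3.26 FPKM against 3.83, 5.26 and 5.49 FPKM (-0.64 ± 0.19, adjusted p = 0.90).

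At D6, 0 of 31 tested members were called without a block by edgeR and 0 by DESeq2, with 1 (Grik3) at an unadjusted p under 0.05 (1.36%); 0.0% of all tested genes were called. Groups did not overlap for 4 members (5.3% of all tested genes), with Gabra5 and Gabrb1 higher and Gabra3 and Grik3 lower. Gabra5 and Gabrb1 would not have passed the filter without their treated libraries, so their direction was favoured in advance. Same-numbered treated and untreated D6 libraries deviated together, and with the replicate number as a block 2 members were called, both lower, against 1.58% of all tested genes. Grik3 stood at 8.11, 8.33 and 4.87 FPKM with GSKJ4 against 12.1, 13.1 and 8.36 FPKM without, lower in 3 of 3 numbered pairs (-0.67 ± 0.06 with the block, adjusted p = 1.4e-06). The share of Grik3 in summed kainate FPKM was 16.6% with GSKJ4 and 24.1% without (exact permutation p = 0.2). Gabrb2 stood at 3.63, 2.26 and 2.21 FPKM against 4.06, 3.85 and 3.41 FPKM, lower in 3 of 3 pairs although treated replicate 1 lay above untreated replicate 3 (-0.51 ± 0.11 with the block, adjusted p = 0.019). The other members had fold changes without the block between -0.44 and 1.00 on the log2 scale. Among partners, with the block, 3 of 29 tested glutamate partners, 3 of 11 inhibitory partners and 1 of 8 tested nicotinic partners were lower and 0 higher, with Shisa6 at 4.44 FPKM with GSKJ4 and 6.35 without, Slc12a5 at 15.7 and 19.9, and Lypd1 at 10.03 and 15.04.

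**Figure D5:**
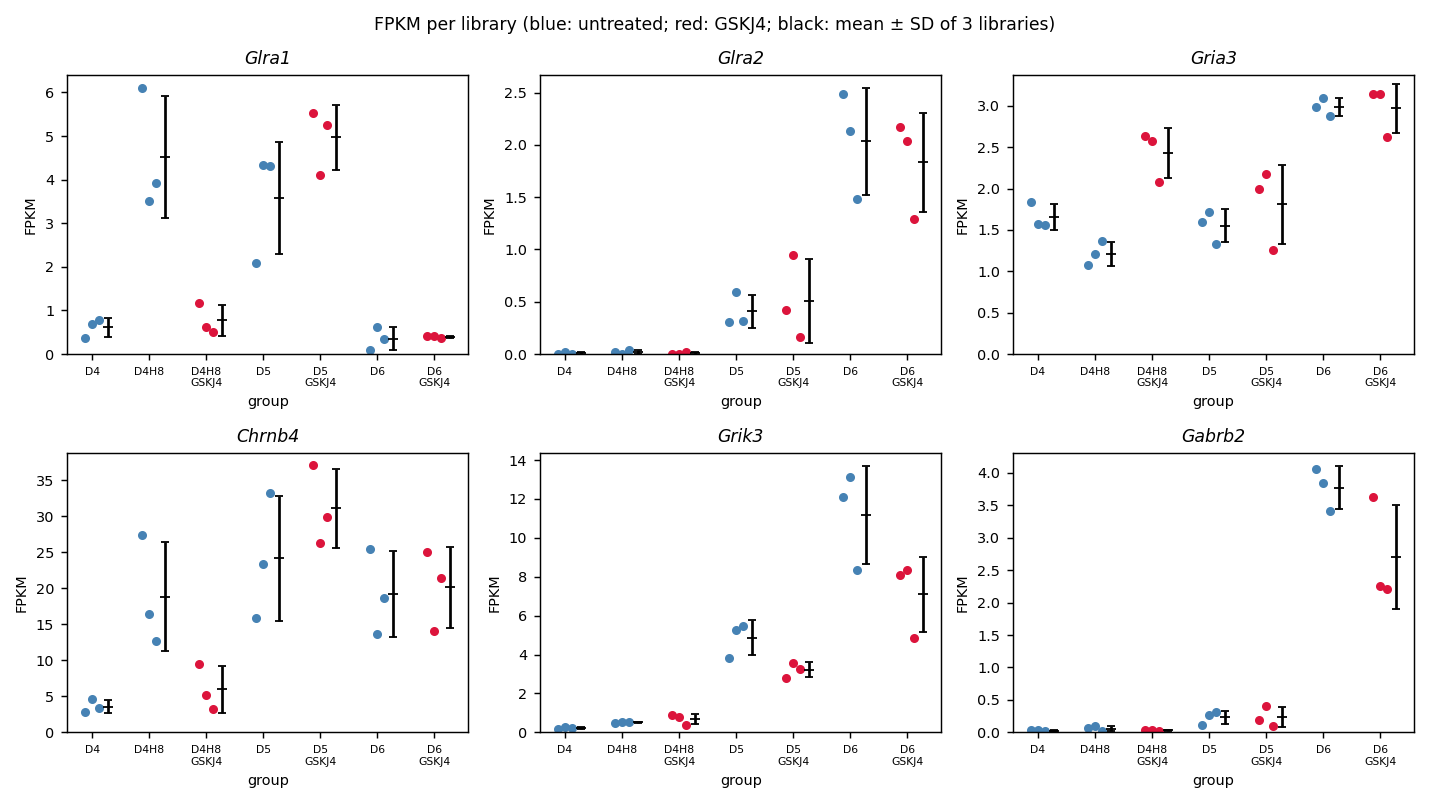
FPKM per library of 6 members in the 7 groups; blue points are untreated and red points GSKJ4-treated libraries, with the mean ± SD of 3 in black. Glra1 with GSKJ4 at D4H8 (0.50 to 1.18 FPKM) lies below the untreated D4H8 libraries while at D5 the groups overlap; Grik3 libraries do not overlap at D5 or D6, and Grik3 was called lower at D6 with the replicate block alone.

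Whether the GSKJ4 effect differed between stages was tested with an interaction term over the 18 libraries of D4H8, D5 and D6. Of 33 tested members, 0 were called between D5 and D4H8 (0.249% of all tested genes), 0 between D6 and D5 (0.0%) and 0 between D6 and D4H8 (0.735%). At an unadjusted p under 0.05 there were 7, 1 and 7 members (10.0%, 1.98% and 13.7% of all tested genes), and DESeq2 called 2, 0 and 3 (1.35%, 0.00283% and 3.75%). Glra1 came nearest, with an effect higher at D5 than at D4H8 by 3.04 ± 0.63 on the log2 scale (adjusted p = 0.051) and at D6 than at D4H8 by 2.77 ± 0.69 (adjusted p = 0.075). For Chrnb4 these differences were 2.04 ± 0.55 (adjusted p = 0.16) and 1.78 ± 0.55 (adjusted p = 0.15). With DESeq2 both genes were called, Glra1 at adjusted p = 0.000122 and 0.0032 and Chrnb4 at 0.028 and 0.049, and the remaining call between D6 and D4H8 was Gria3 (-1.03 ± 0.32, adjusted p = 0.038). Whether these effects differ between stages thus depended on the test used.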

How the data were processed

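Poly(A) RNA of 21 libraries in 7 groups of 3 was sequenced. According to the submitters' processing notes and the study's methods, reads were trimmed with Fastp and aligned to mm10 with Hisat2, and HTSeq-count produced the deposited counts per gene, which are raw. The deposited FPKM values were computed by the authors from these counts; recomputed values differed by at most 0.005. The counting strand was not given in the sources used here. Total counts ran from 14982115 to 34383842 per library, which limits the precision for genes with few counts.

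Counts were tested with edgeR 4.0.16 (quasi-likelihood test, TMM scaling, filterByExpr with a minimum count of 10, R 4.3.3), and p-values were adjusted over all genes tested. Untreated stages shared 1 fit over 12 libraries, GSKJ4 was tested within each stage, and the difference between stages was an interaction term over 18 libraries. Alternatives were other scalings (RLE, upper quartile), no filter or at least 10 counts in every library, DESeq2 1.42.0, limma 3.58.1 on log2(FPKM + 1) and log2(FPKM + 0.1), the replicate number as a block, 1 fit over all 21 libraries, and leaving out each library. Shares of a family's FPKM were compared with a two-sided exact permutation test (scipy 1.17.1), for which 0.1 is the smallest p of 3 against 3. The fitting steps were tested on simulated data. Summaries used Python 3.11.15 and pandas 2.3.3, and figures matplotlib 3.10.9.

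The members and the partner and marker lists were chosen with earlier results of these data known. The sensory and neural crest marker list is not reported here. Members given library by library were, in each family, the one with the highest D6 level and the one with the largest called change from D4 to D6, and those called under GSKJ4 or, at D6, with the replicate block. At most 3 genes per partner list and comparison were named, by size of called change; genes outside these rules are said to be singled out after their values were seen. Same-numbered libraries were taken as paired where the correlation of their deviations from the group mean, over 12964 genes, was above 0.1 in every pair. This held for D6 with and without GSKJ4 (0.896, 0.632 and 0.771) and, at lower values from 0.157 to 0.455, for neighbouring untreated stages. That range overlaps with the values of the treated and untreated pairs at D4H8 and D5 that fell short of the rule.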

Additional observations from a re-analysis of the deposited data

How the results depend on the processing

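Single members were refitted mostly where they had been called, so that gains elsewhere are not counted here. Chrnb4 with GSKJ4 at D4H8, for example, was called by DESeq2 (adjusted p = 0.00042) and with upper-quartile scaling (0.047). Of 655 such refits under other settings, 625 kept direction and side of the threshold, 28 lost and 2 gained a call and 0 reversed; of 900 refits without 1 library, 870 kept both, 30 lost the call and 0 reversed. With at least 10 counts in every library, which tests fewer members, 10 members were called between D4H8 and D5, 10 between D5 and D6 and 14 between D4 and D6, and limma on log2(FPKM + 1) called 11 between D4H8 and D5. For GSKJ4 at D4H8, where 2 members were called, there were 7 without a filter, 5 with DESeq2, 0 with limma at either pseudocount and 5 in 1 fit over all libraries. For the difference in GSKJ4 effect between D5 and D4H8 there were 1 with RLE, 1 with upper-quartile scaling, 3 without a filter, 2 with DESeq2 and 1 with limma on log2(FPKM + 1), and between D6 and D4H8 there were 2 without a filter, 3 with DESeq2 and 1 with that limma fit. The cause of these differences was not tested. For most of these settings the share of all tested genes called was not taken, so the counts cannot be read as particular to the receptors.

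With the replicate block, 6 members were called for GSKJ4 at D4H8 (14.0% of all tested genes) and 2 at D6, and 2 and 4 for the differences in effect of D5 and D6 from D4H8 (1.77% and 4.86%). Among the 6 at D4H8, edgeR with the block gave adjusted p = 7.5e-05 for Glra1, 9.0e-05 for Chrnb4 and 0.019 for Gria3. Treated and untreated libraries at D4H8 and D5 fell short of the rule for pairing, which asks for more than 0.1 in every pair. Their correlations were 0.494, 0.087 and 0.307, and 0.336, 0.093 and 0.376. D4 and D6 also fell short of it, and there the block adds Gabrg3 as lower (adjusted p = 0.029). The sources used here do not say that a number marks a shared batch. Other than Grik4 between D4H8 and D5, the block changed no other call between untreated stages.

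Leaving out 1 library gave 6 to 10 members called at the first step, 15 to 17 at the next, 19 to 24 at the last and 25 to 29 between D4 and D6. It gave 0 to 3 for GSKJ4 at D4H8, 0 at D5, 0 at D6, and 0 to 2, 0 and 0 to 3 for the differences in effect. The share of all tested genes was not taken for these refits either. D6 shares without 1 library were 57.8 to 58.8% for Gria2, 65.9 to 69.2% for Grik5, 29.6 to 33.3% for Grin2d, 61.4 to 66.0% for Gabrb2, 45.7 to 52.5% for Glra2, 29.5 to 32.3% for Chrna4 and 96.1 to 96.7% for Chrnb1. As shares of summed counts, not per length, they were 75.4% for Gria2, 54.9% for Grik5, 22.5% for Grin2d, 42.3% for Glra2 and 94.1% for Chrnb1, and over members with at least 1 FPKM 37.6% for Grin2d, 74.4% for Gabrb2 and 100.0% for Chrnb1. Depth limits members with few counts, such as Gabrg1, Gabrb1 and Grin3a.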

Other observations

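Metabotropic receptors, which act through G proteins for the same transmitters, were counted as a list of 15, of which 9 were tested between D4 and D6; 8 rose and 1 fell (32.9% and 31.0% of all tested genes). Among the 8, Chrm2 (1 summed count at D4 and 382 at D6) and Grm5 (7 and 150) needed their D6 libraries to pass the filter. Both thus had to rise, and other such genes in this list were not set apart. The muscarinic gene Chrm2 had mean levels of 0.00333 FPKM at D4 and 1.32 FPKM at D6, the glutamate receptor gene Grm2 0.0867 and 10.9 FPKM, and the GABA-B gene Gabbr2 0.0433 and 2.09 FPKM. Grm2 had its highest mean, 24.2 FPKM, at D5. Chrm4 was the gene that fell (-0.88 ± 0.34 on the log2 scale, edgeR adjusted p = 0.036), and its call was lost without D4 replicate 2 or 3 or D6 replicate 1 or 3 (adjusted p = 0.078, 0.122, 0.088 and 0.105). With GSKJ4 at D6, 0 of 10 tested were called without the replicate block. With the block 2 were called, both lower, against 1.58% of all tested genes in either direction. Chrm2 stood at 0.66 FPKM with GSKJ4 and 1.32 without, and Chrm3 at 0.25 and 0.577.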
